A study of Mus musculus with 10 samples.

Results

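Immediate early genes are transcribed within minutes of a stimulus from transcription factors that are already present in the cell, so no new protein has to be made first. Neuronal firing raises calcium and cyclic AMP, kinases then activate CREB and serum response factor, and the first products are transcription factors, phosphatases and synaptic proteins. In the hypothalamus, Fos RNA and protein are widely used to mark neurons that were recently active. The 10 genes described here, of 19505 measured, were Fos, Jun, Junb, Egr1, Arc, Nr4a1, Dusp1, Ier2, Ier5 and Btg2. They were chosen by name, with no threshold on their values, and each was represented by 1 probe set. In the hypothalamus of aged mice 4 of them could be compared with young mice, and each was higher on average: Fos 1.26-fold, Egr1 1.18-fold, Nr4a1 1.14-fold and Dusp1 1.06-fold. None passed limma's test over all genes, and 3 (Fos, Egr1 and Nr4a1) had an unadjusted p under 0.05, as did 6.82% of all genes. Few of all genes varied between arrays, however, so the 6.82% is not a like background for genes that did. Among the 276 that did, limma's fit to them alone called 24.6% higher and 11.2% lower in Old after adjustment. Fos and Nr4a1 were among those called higher in that fit, and Egr1 and Dusp1 were not. For the other 6 of the 10 genes the deposited values lay within 5.2e-05 log2 of each other on all arrays, and these values cannot show the size of a change with age.

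Hypothalamic RNA came from male mice of the inbred strain C57BL/6J, kept with free access to food and water on a light-dark cycle. There were 5 Old samples, from mice 138 weeks of age, and 5 Young samples, from mice 24 weeks of age, and no treatment or genetic change is named. Ages are those of the age label; a number in the array code of every description, 120 for Old and 8 for Young, is left unexplained there. Each was hybridised to an array of its own, the oligonucleotide array Clariom S Mouse, which uses 1 colour. The sources used here do not give the time of day at which tissue was taken. Whether 1 sample stands for 1 animal is not stated in the labels. The p-values therefore rest on sample-to-sample spread, part of which may be technical.

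The deposited values, which lie between 5.00 and 12.97, were taken to be log2 signal, a reading on which every fold rests, and array medians ran from 6.778 to 6.783. No detection calls were used, so nothing is said of which probe sets lay above background. Hypothalamic peptide transcripts were among those that varied between arrays: Pmch, which encodes melanin-concentrating hormone, lay between 10.25 and 10.48 log2, and Hcrt, which encodes orexin, between 8.91 and 9.21 log2. Of 14 measured hypothalamus markers 6 varied, 3 with a higher and 3 with a lower mean in Old, and they were not all even between the ages. The difference was 0.62 (SE 0.13) for Avp, with no overlap, and -0.16 (SE 0.045) for Sst. Neither passed limma's test over all genes (adjusted p = 0.182 and 0.465). In limma's fit to the varying genes alone, 1 marker was called higher and 1 lower. Single Young arrays stood out for transcripts used as markers of other tissues. Young 5 had the choroid plexus transcript Ttr at 12.44 log2, and no other array had more than 7.97. Young 3 had the liver transcript Alb at 6.87 log2, near the array medians, and no other array had more than 6.34. Of 10 measured liver markers 3 varied, and Ttr was also 1 of these.

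Promoters are shown first, for 3 of the varying genes and 2 for comparison, with the element that CREB is known to bind; no binding was measured here. Of the 10 genes, 7 had a window taken from the RefSeq promoter table of build GRCm38.p6, and Egr1, Arc and Ier2 did not. The search of named genes skipped the chromosome that carries Egr1, so whether the table holds an entry for Egr1 is not shown. Each line gives the 250 bases before the annotated start, 5′ to 3′ on the gene's strand. Capitals mark the core of the cyclic AMP response element, TGACG, and its complement, CGTCA. The windows are those of Fos at chr12:85473640-85473889 (plus strand), Nr4a1 at chr15:101266596-101266845 (plus strand) and Dusp1 at chr17:26508473-26508722 (minus strand). Btg2, at chr1:134079156-134079405 (minus strand), is shown as a gene with a full element but a level only. Nr4a3, at chr4:48045055-48045304 (plus strand), is the gene outside the 10 whose pattern was most like theirs.
Fos: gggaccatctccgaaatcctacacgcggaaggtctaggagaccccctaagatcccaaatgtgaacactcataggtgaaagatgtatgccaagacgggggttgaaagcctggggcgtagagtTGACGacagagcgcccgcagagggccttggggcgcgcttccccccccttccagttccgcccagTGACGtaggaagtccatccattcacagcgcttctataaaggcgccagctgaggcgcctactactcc
Nr4a1: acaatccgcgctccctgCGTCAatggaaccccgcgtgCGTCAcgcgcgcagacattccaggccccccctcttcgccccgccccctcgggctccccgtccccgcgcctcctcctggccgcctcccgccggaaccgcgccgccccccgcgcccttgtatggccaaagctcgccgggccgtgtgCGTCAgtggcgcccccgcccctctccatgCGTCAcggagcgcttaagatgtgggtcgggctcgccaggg
Dusp1: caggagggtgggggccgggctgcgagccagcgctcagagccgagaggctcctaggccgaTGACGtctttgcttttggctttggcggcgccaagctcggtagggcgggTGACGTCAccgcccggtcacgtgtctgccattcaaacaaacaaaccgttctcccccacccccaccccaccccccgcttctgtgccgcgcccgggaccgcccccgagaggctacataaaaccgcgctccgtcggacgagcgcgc
Btg2: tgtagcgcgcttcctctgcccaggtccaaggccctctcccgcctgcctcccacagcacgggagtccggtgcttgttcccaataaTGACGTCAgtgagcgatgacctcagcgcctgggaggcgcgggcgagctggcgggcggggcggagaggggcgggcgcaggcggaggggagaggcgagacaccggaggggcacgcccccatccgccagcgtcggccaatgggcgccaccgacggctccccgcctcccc
Nr4a3: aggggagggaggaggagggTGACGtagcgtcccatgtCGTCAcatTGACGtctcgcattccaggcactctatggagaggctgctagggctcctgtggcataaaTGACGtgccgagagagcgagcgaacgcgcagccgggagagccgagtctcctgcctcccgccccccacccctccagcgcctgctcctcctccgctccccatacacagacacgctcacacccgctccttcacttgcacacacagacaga

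Cores were found in 5 of the 7 windows (Fos, Junb, Nr4a1, Dusp1 and Btg2) and in 17.8% of 32851 promoter windows of the same length in the table. The window of Nr4a1 held 4 cores, the nearest at -40 to -36 from the start, and that of Fos held 2, at -129 to -125 and at -66 to -62. Nr4a3 also had 4, between -231 and -143. The full palindromic element TGACGTCA, in which a core on each strand overlap, was found in Dusp1 at -143 to -136 and in Btg2 at -166 to -159, and in 1.55% of all windows. Dusp1 had 1 further core at -191 to -187. The AP-1 element TGANTCA, to which Fos and Jun proteins bind as a pair, was searched on both strands and found in 0 of the 7 windows, against 6.75% of all. The CArG box, the site of serum response factor, was likewise found in 0 of the 7, against 1.47% of all. Egr1 was not searched, whereas windows of its chromosome stayed among all windows, so the shares do not come from sets chosen alike. A match is a description of letters, and windows without one say nothing of sites further away. Junb had 1 core at -106 to -102, and Jun and Ier5 had 0.

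Fos encodes the bZIP protein that pairs with Jun proteins to form AP-1. It measured 8.38, 8.24, 8.38, 8.71 and 8.46 log2 in Old 1 to Old 5, against 8.13, 8.04, 7.88, 8.19 and 8.25 log2 in Young 1 to Young 5. Of the Old arrays 4 lay above every Young array, and Old 2 lay just under Young 5. The means were 8.43 ± 0.17 log2 in Old and 8.10 ± 0.14 log2 in Young (SD, n = 5 each), a difference of 0.34 (SE 0.095, 95% interval 0.12 to 0.55). A 2-sided exact permutation test of this single difference gave p = 0.0159, where the smallest possible value with 5 against 5 is 0.00794. In limma's fit to all 19505 genes its adjusted p was 0.453. For comparison, that fit called 0.220% of all genes in either direction.

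Egr1 encodes a zinc-finger transcription factor induced by the same kinases. It measured 9.73, 9.45, 9.68, 9.92 and 9.73 log2 in Old 1 to Old 5, against 9.48, 9.48, 9.18, 9.64 and 9.54 log2 in Young 1 to Young 5. Again 4 Old arrays lay above every Young array. Old 2 was the exception, lower than every Young array but Young 3. The means were 9.70 ± 0.17 and 9.46 ± 0.17 log2 in Old and Young (SD, n = 5 each), a difference of 0.24 (SE 0.10, 95% interval 0.011 to 0.47). The exact permutation p was 0.0476 and limma's adjusted p over all genes 0.713.

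Nr4a1 encodes an orphan nuclear receptor, also called Nur77. Its values were 7.70, 7.51, 7.76, 7.91 and 7.67 log2 in Old 1 to Old 5, against 7.49, 7.51, 7.48, 7.60 and 7.55 log2 in Young 1 to Young 5. The Young arrays lay close together (SD 0.048, n = 5), whereas the Old arrays were more widely spread (SD 0.14, n = 5). The 4 Old arrays above all Young arrays were the same as for Fos, and Old 2 lay within the Young range. The difference was 0.19 (SE 0.064, 95% interval 0.041 to 0.33), with an exact permutation p of 0.0238 and a limma adjusted p of 0.637 over all genes.

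Dusp1 encodes a phosphatase that switches off MAP kinases and so closes the response. It measured 10.15, 10.15, 10.10, 10.34 and 10.18 log2 in Old 1 to Old 5, against 10.18, 10.04, 10.06, 10.11 and 10.11 log2 in Young 1 to Young 5. Old 4 was the single Old array above all Young arrays, and the ranges otherwise overlapped. The difference was 0.083 (SE 0.045, 95% interval -0.018 to 0.18), with an exact permutation p of 0.111 and a limma adjusted p of 0.799. Without Old 4 the difference was 0.044. These 4 exact tests were the ones run on the 10 genes.

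**Figure D1:**
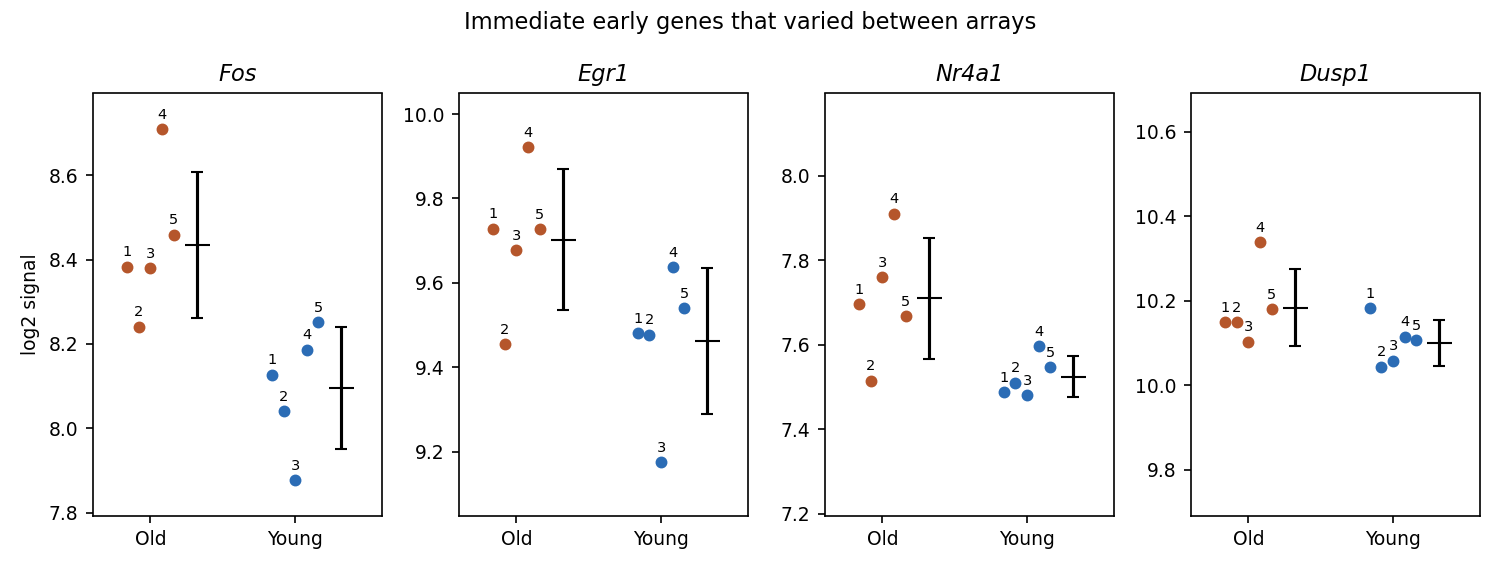
Log2 signal of Fos, Egr1, Nr4a1 and Dusp1 by array, with Old left of Young; points are arrays, numbered by replicate, and the bar beside each group is its mean ± SD (n = 5). Every panel spans 1 log2 unit. Old 4 is the highest array in each panel, and Young 3 is the lowest for Fos, Egr1 and Nr4a1.

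The median difference of the 4 varying immediate early genes was 0.21 log2. Over all 276 genes that varied it was -0.019 log2, and 47.5% of them had a higher mean in Old. In limma's fit to the varying genes alone, Fos (adjusted p = 0.0202) and Nr4a1 (adjusted p = 0.0479) passed the threshold of 0.05, and Egr1 (0.0847) and Dusp1 (0.187) did not. That fit called 24.6% of the varying genes as higher in Old and 11.2% as lower, so 2 of 4 is a small count beside a high background. Of the varying genes, 20.7% were higher and 7.25% lower in Old with no overlap between the ages, and none of these 4 genes was among them. RNA of whole tissue was measured, so more cells expressing a gene and more RNA per cell cannot be told apart.

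The other 6 genes had a level but no usable difference. A gene was treated as level only where its population SD over the 10 arrays was under 0.01 log2. Jun, which encodes the partner of Fos in AP-1, was deposited at 7.94 log2 on every array to 2 decimals, and Junb, a related partner, at 7.56 log2. Arc, which encodes a synaptic protein that governs glutamate receptor uptake, stood at 6.73 log2. Ier2 and Ier5, small nuclear proteins, stood at 6.28 and 6.99 log2, and Btg2, an antiproliferative gene, at 7.32 log2. Of the 6, Btg2 had the widest range over the 10 arrays. Among the 10 genes, the nearest to the limit were Dusp1 above it, with an SD of 0.079, and Btg2 below it, with an SD of 1.5e-05. Other genes of the series lay closer to the limit on both sides. Only 1.42% of all genes had an SD of at least 0.01, and the sources used here do not name the step that removed the spread of the others.

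**Figure D2:**
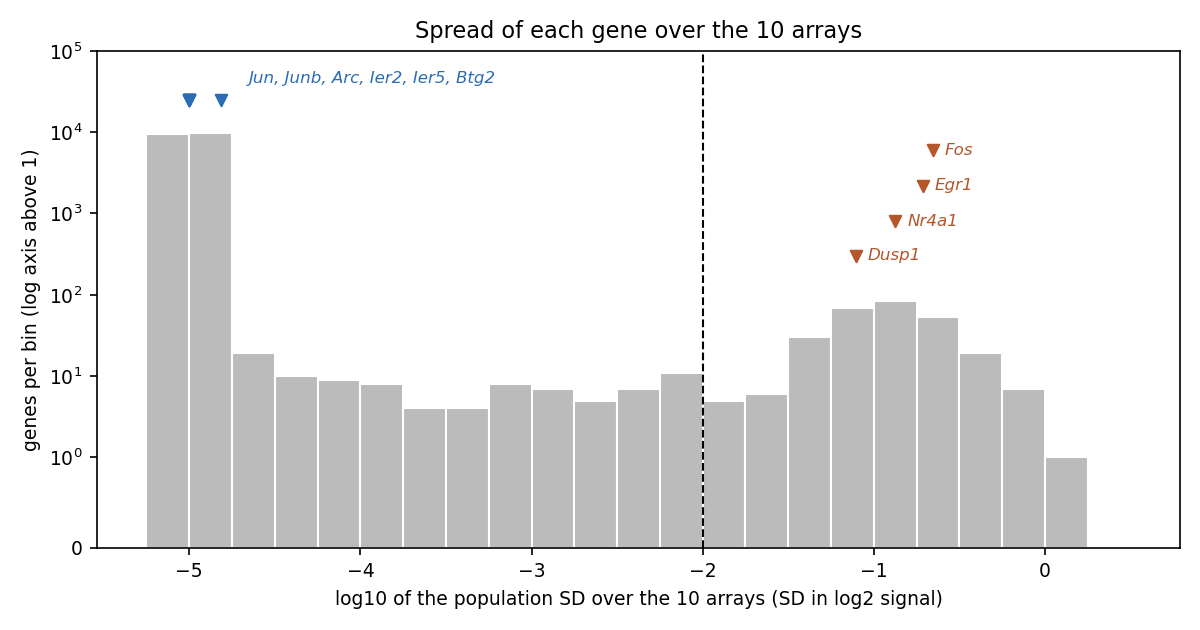
Number of genes by the population SD of their log2 signal over the 10 arrays (x axis on a log10 scale, y axis on a log scale above 1); the dashed line is an SD of 0.01. Triangles mark the x position of each of the 10 genes, with no meaning in their height: Fos, Egr1, Nr4a1 and Dusp1 lie right of the line, and Jun, Junb, Arc, Ier2, Ier5 and Btg2 lie with the bulk of genes near 1.0e-05.

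The varying genes moved together within each age as well. When each array was expressed as its deviation from the mean of its own age, Fos and Egr1 had a Pearson correlation of 0.92 (Spearman 0.93) over the 10 arrays, Fos and Nr4a1 0.80 (0.72), and Egr1 and Nr4a1 0.79 (0.76). Dusp1 followed Fos at 0.76 (0.81), Egr1 at 0.59 (0.71) and Nr4a1 at 0.55 (0.31). The arrays are shared by all 6 pairs, and these values are descriptions. Old 4 and Young 3 carried much of the likeness to Dusp1: without them its correlations were 0.31 with Fos, 0.056 with Egr1 and -0.26 with Nr4a1. The 3 pairs of transcription factors kept values of 0.78 (Fos and Egr1), 0.64 (Fos and Nr4a1) and 0.87 (Egr1 and Nr4a1) without these arrays, which were picked after their values were seen.

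Within the Old group, Old 4 lay above its age mean by 0.27 for Fos, 0.22 for Egr1, 0.20 for Nr4a1 and 0.15 for Dusp1, in log2 units. Old 2 lay below it by a deviation of -0.19, -0.25 and -0.20 for the 3 transcription factors. Within the Young group, Young 3 deviated by -0.22 for Fos and -0.29 for Egr1 but by -0.044 for Nr4a1. With Young 3 and Old 4 both left out, the difference between the ages was 0.21 for Fos, 0.11 for Egr1, 0.12 for Nr4a1 and 0.034 for Dusp1. With Young 3 and Young 5 left out, the arrays highest for Alb and for Ttr, it was 0.32 for Fos, 0.17 for Egr1, 0.18 for Nr4a1 and 0.071 for Dusp1. None of these differences passed limma's test over all genes, with adjusted p from 0.548 to 0.907.

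**Figure D3:**
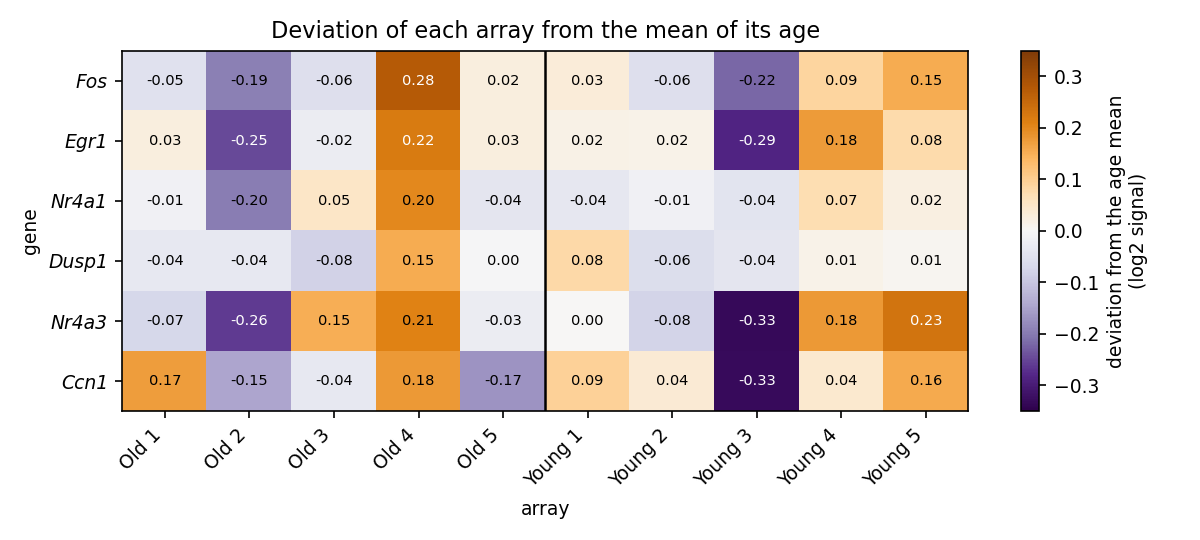
Deviation of each array from the mean of its age, in log2 signal, for the 4 varying immediate early genes and for Nr4a3 and Ccn1; columns are arrays, Old left of the line and Young right of it. Old 4 is above its age mean in all 6 rows, and Young 3 and Old 2 are below theirs in all 6.

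Among the other 272 varying genes, the one whose within-age pattern was most like the mean of the 4 was Nr4a3 (Pearson 0.86, Spearman 0.88, 10 arrays), which encodes an orphan nuclear receptor of the same family as Nr4a1 and is itself an immediate early gene. It was followed by Gja1 (0.83), the astrocyte gap junction protein connexin 43, Cd9 (0.79), a tetraspanin, Vip (0.79), a neuropeptide of the suprachiasmatic nucleus, and Clk4 (0.74), a kinase of splicing factors. Their age differences were not alike: Gja1 was lower in Old by a difference of -0.14 (SE 0.043), Cd9 was at 0.14 (SE 0.059), Clk4 at 0.084 (SE 0.048) and Vip at -0.023 (SE 0.097). None of these passed limma's test over all genes (adjusted p from 0.525 to 0.986).

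The 5 genes least like the mean of the 4 were Th (Pearson -0.84), Chrnb3 (-0.81), Slc18a2 (-0.81), Ddc (-0.80) and Ret (-0.74), over the 10 arrays. Th, Slc18a2 and Ddc encode tyrosine hydroxylase, the vesicular monoamine transporter and DOPA decarboxylase, which dopamine neurons use to make and store their transmitter. With the dopamine transporter gene Slc6a3 they were taken as a marker list after their values were seen. The mean of the 4 markers was 8.73, 8.96, 8.49, 7.94 and 7.82 log2 in Old 1 to Old 5, against 8.42, 8.49, 8.60, 7.97 and 7.86 log2 in Young 1 to Young 5. The arrays thus fell at 2 levels, with replicates 4 and 5 of both ages at the low one. Old 2, the highest array for these markers, was the lowest Old array for Fos, Egr1 and Nr4a1, and Young 3, the highest Young array, was the lowest Young array for the same genes.

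The Old and Young ranges of all 4 markers overlapped, with differences of 0.10 (SE 0.28) for Th, 0.11 (SE 0.53) for Slc6a3, 0.17 (SE 0.14) for Slc18a2 and 0.10 (SE 0.082) for Ddc. For Slc18a2 and Ddc, 3 Old arrays lay above every Young array. With their mean as a covariate in limma's fit to all genes, a fit added after seeing the data, the age difference was 0.38 for Fos, 0.28 for Egr1, 0.21 for Nr4a1 and 0.094 for Dusp1, and none passed. Since 3 of these markers were taken for running opposite to the same 4 genes, the errors and p-values of that fit are no support and are not given. Striatal projection neurons also express immediate early genes, and the mean of the 5 varying striatum markers, of 11 measured, ran from 7.997 to 8.444 log2 in Old and from 8.042 to 8.449 log2 in Young. With that mean as a covariate the difference of Fos was 0.34 (SE 0.10) and that of Egr1 0.24 (SE 0.11). Of 8 measured cortex markers 0 varied. Old 2 also stood apart in the mean of the 3 varying endothelial markers, of 10 measured, at 8.998 log2, where the other arrays had 8.54 to 8.63. The mean of the 5 varying astrocyte markers, of 10 measured and with Gja1 among them, ran from 10.26 to 10.35 log2 in Old and from 10.25 to 10.31 log2 in Young, with Old 4 the highest array. The part of dopamine neuron, striatal, endothelial or astrocyte content in the age differences was not tested.

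**Figure D4:**
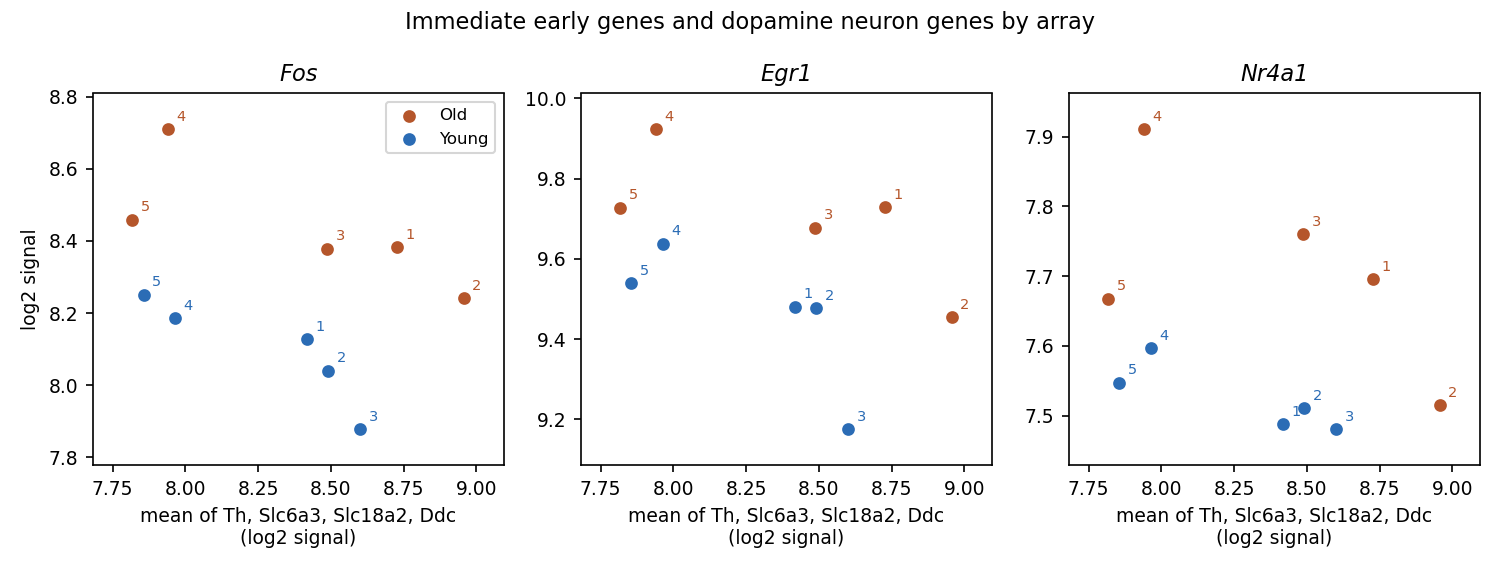
Log2 signal of Fos, Egr1 and Nr4a1 (y axis) against the mean log2 signal of the dopamine neuron genes Th, Slc6a3, Slc18a2 and Ddc (x axis); points are arrays, numbered by replicate, with Old and Young in different colours. Replicates 4 and 5 of both ages lie at the left, between 7.82 and 7.97, and the other 6 arrays lie between 8.42 and 8.96.

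Other genes of the same response were examined in 6 lists chosen by function: AP-1 relatives, other early transcription factors, feedback inhibitors, activity-induced effectors, upstream kinases and factors, and glucocorticoid targets. Together the lists hold 120 genes, of which 110 were measured and 9 varied. In limma's fit to all genes 0 rose and 0 fell. Before adjustment, p was under 0.05 for 7 of them, against 6.82% of all genes, and of these 7 only Ccn1 varied. Of the 9 AP-1 relatives measured, such as Fosb, Fosl2 and Jund, 0 varied, and likewise 0 of the 20 feedback inhibitors, which include Dusp6 and Zfp36. Of 18 other early transcription factors 1 varied, Nr4a3, and of 23 effectors 2 varied, Ccn1 and Sgk1.

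Ccn1 encodes a matricellular protein that serum induces rapidly. It measured 8.77, 8.45, 8.56, 8.78 and 8.43 log2 in Old 1 to Old 5, against 8.13, 8.07, 7.71, 8.08 and 8.19 log2 in Young 1 to Young 5, with no overlap between the ages. The difference was 0.56 (SE 0.11, 95% interval 0.32 to 0.81), or 1.48-fold, with an exact permutation p of 0.00794, the smallest that 5 against 5 arrays can give. Any gene without overlap has this p, and 20.7% of varying genes were higher and 7.25% lower in Old without overlap. Among the 9 varying genes of the 6 lists, the next smallest exact p was 0.151, for Nr4a3. For Ccn1 limma's adjusted p was 0.136 over all genes and 0.00248 among the varying genes alone. Without Young 3, its lowest array, the difference was 0.48.

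Nr4a3 measured 8.22, 8.03, 8.44, 8.50 and 8.26 log2 in Old 1 to Old 5, against 8.06, 7.98, 7.73, 8.24 and 8.29 log2 in Young 1 to Young 5. Only Old 3 and Old 4 lay above every Young array. Its difference of 0.23 (SE 0.12, 95% interval -0.051 to 0.51) did not pass in either fit (adjusted p = 0.804 over all genes and 0.166 among varying genes). It was 0.14 without Young 3 and 0.093 without Young 3 and Old 4. Sgk1, a kinase induced by activity and by glucocorticoids, was at 0.21 (SE 0.14, adjusted p = 0.850), and at 0.14 without Young 2.

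Of 29 measured genes upstream of the response 2 varied, with small differences: Prkacb, a catalytic subunit of protein kinase A, at 0.013 (SE 0.010), and Mef2c, an activity-dependent transcription factor, at -0.023 (SE 0.031). Creb1, Srf and Elk1 were level only. Of 15 measured glucocorticoid targets 5 varied, among them Sgk1. The metallothionein genes Mt1 (0.0077, SE 0.032) and Mt2 (0.0057, SE 0.093) and the cell cycle inhibitor gene Cdkn1a (-0.030, SE 0.099) differed by less than their standard errors. Lcn2, which encodes lipocalin 2, ran from 6.14 to 7.95 log2 in Old and from 5.76 to 7.34 log2 in Young, a difference of 0.60 (SE 0.43, adjusted p = 0.870). It was 0.30 without Old 2 and 0.91 without Young 3. Over the 9 varying genes of the 6 lists 7 were higher and 2 lower in Old, with Mt1 and Mt2 counted among the 7. Of the 9, 1 (Ccn1) passed in the fit to varying genes alone. That fit called 24.6% of varying genes higher and 11.2% lower, so the count does not stand out.

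**Figure D5:**
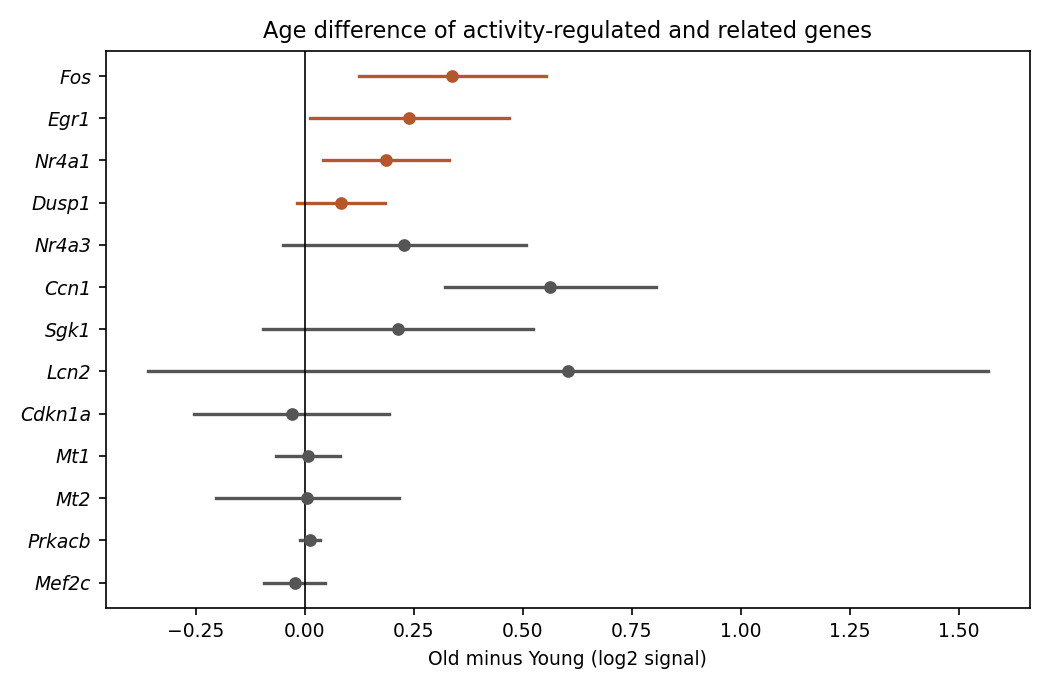
Difference of Old minus Young in log2 signal (x axis) for the 4 varying immediate early genes (top, coloured) and the 9 varying genes of the 6 related lists (grey); points are differences and lines 95% intervals from limma's fit to all genes. The intervals of Fos, Egr1, Nr4a1 and Ccn1 lie above 0 before any adjustment for the number of genes, and those of the other 9 genes include 0.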

How the data were processed

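The table as deposited gives each probe set 1 value per array, read as log2 signal; the sources used here do not give the authors' background correction, normalization, summarisation or log base. Of 22206 probe sets, 19572 have 1 gene symbol in the platform annotation, 0 have several and 2634 are unnamed here. All 19572 gene identifiers matched RefSeq (GRCm38.p6). The brightest probe set per gene was kept, which left 19505 genes, 276 of them varying (population SD of at least 0.01). Old was compared with Young using limma 3.58.1 in R 4.3.3 (lmFit, eBayes, 2-sided, Benjamini-Hochberg over all genes, threshold 0.05), and with 2-sided exact permutation tests over the 252 labellings. Precision is limited by the number of arrays. The procedure was run on simulated data, with equal noise for every gene and with the deposited spread. Recovery of changes was required only with equal noise, which is unlike these values, so that check says little about them. Genes and lists were chosen with earlier results of these data known. Named were the 10 genes, every varying or called member of the 6 lists, and the 5 varying genes most and 5 least like the mean of the varying immediate early genes. Fosb, Fosl2, Jund, Dusp6, Zfp36, Creb1, Srf, Elk1, Alb, Ttr, Pmch, Hcrt, Avp, Sst and Slc6a3 were named outside that rule. Alternatives were quantile normalization, median centring, the dimmest 33.3% of genes left out, other variance priors, varying genes alone, all probe sets, mean of probe sets, single and paired arrays left out, a replicate block, and striatum or dopamine markers as a covariate.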

Additional observations from a re-analysis of the deposited data

Results flagged for a closer look

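In 2 of 26 groups tested, 1 array lay far from the other 4 (a gap above 0.71 of the group's range), and chance gives about 1 in 20 groups. Both were Young 3. Ccn1 was lowest there, at 7.71 log2 where the next Young array had 8.07. Lcn2 was highest there, at 7.34 log2 where the next Young array had 5.88.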

How the results depend on the processing

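Fos, Egr1, Nr4a1 and Dusp1 were higher in Old under each of the 23 alternatives run. Some of these could not change the differences of the 4 genes, only their errors or adjusted p. They were the dimmest genes left out, other variance priors, varying genes alone, all probe sets, mean of probe sets and the replicate block. Fos was at 0.21 to 0.39, Egr1 at 0.11 to 0.30, Nr4a1 at 0.12 to 0.23 and Dusp1 at 0.034 to 0.10. Leaving out 1 array at a time gave 0.27 to 0.39, 0.17 to 0.30, 0.14 to 0.23 and 0.044 to 0.10 in the same order, with no call. In the varying genes alone, a fit with fewer genes tested, Fos (0.34) and Nr4a1 (0.19) gained calls. Fos also gained a call with quantile normalization (0.34, adjusted p = 0.0268). Its unadjusted limma p was no smaller there, at 0.0071 against 0.0061 without that normalization. The same fit called 6509 level-only genes, which eases the adjustment for every gene. Members of the 6 lists called were 0 higher and 0 lower in the fit to all genes. They were 1 and 44 with quantile normalization, where all 44 were level only. They were 1 higher (Ccn1, adjusted p = 0.0400) with median centring, 1 higher in the varying genes alone, and 0 with each single array left out. With median centring the difference of Ccn1 stayed at 0.56 and its SE fell from 0.11 to 0.097, so that call reflects no larger difference. Fos, Egr1 and Nr4a1 shared a limma adjusted p of 0.0521 there. Over all genes 37 were higher and 6 lower. The counts were 68 and 31 in the varying genes alone, 154 and 6464 with quantile normalization, 22 and 2 without Young 3 and Young 5, and 16 and 2 without Young 3 and Old 4. A trended robust prior gave 10 lower, and fits without 1 array had 25 to 37 higher and 4 to 9 lower; the cause was not tested. Correlations of same-numbered Old and Young arrays over the varying genes ran from -0.22 to 0.28, above 0.1 for numbers 4 and 5 (the arrays low in dopamine markers) but not for the other 3, and the labels tie no numbers together, so they were not taken as pairs; the replicate block gave 10 higher and 1 lower over all genes and called none of the 4 genes. Uncalled signs turned for Mt1 (-0.022) and Mt2 (-0.0010) with quantile normalization, for Mt1 (-0.0026) and Mt2 (-0.027) with the dopamine covariate, and for Cdkn1a (0.040) without Young 3 and Young 5. Without single arrays Mt1 was at -0.018 to 0.026, Mt2 at -0.053 to 0.063 and Cdkn1a at -0.092 to 0.028. The dopamine covariate and the fit without Young 3 and Old 4 were chosen after seeing the data.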
